A study of Mus musculus with 48 samples.

Results

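The complement components followed here are 9 mouse genes of the classical pathway, taken by symbol from a set list out of the 55471 genes counted in each library: C1qa, C1qb, C1qc, C1ra, C1s1, C2, C4b, C3 and Serping1. RNA had been sequenced in 48 libraries, from whole epididymal white fat (eWAT) and from cells sorted out of that fat and labelled as macrophages positive for F4/80, CD11b and CD64. Animals were labelled wild type or as carrying an adipose specific knockout of Txnip, and were fed either a control or a ketogenic diet. Whole eWAT gave 7 wild-type and 7 knockout-labelled libraries on the control diet and 8 and 8 on the ketogenic diet, and the macrophage-labelled cells gave 6 and 6, then 3 and 3. Strain, sex, age, Cre driver and diet composition were not stated in the sources used here. No label ties each library to a separate animal, so a p-value measures the spread between these libraries. All 9 genes passed the low-count filter in each of the 11 comparisons.

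In the classical pathway, C1q binds immune complexes or cell surfaces and activates its partner proteases C1r and C1s. C1s then cleaves C4 and C2 to form the enzyme that splits C3. C1 inhibitor, the product of Serping1, shuts C1r and C1s down. Macrophages are the best-known source of C1q in tissues, while fibroblasts, adipocytes and other resident cells also make C3, C4, C1r, C1s and C1 inhibitor.

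Several features of the libraries bear on what follows. The libraries held 17.4 to 59.8 M gene counts. Depth ran with diet in wild-type eWAT, at 34.7 to 59.8 M on the control and 17.4 to 25.1 M on the ketogenic diet without overlap. In knockout-labelled eWAT it was 35.1 to 51.7 M and 21.0 to 39.0 M. Single members were read at 282 or more counts in each eWAT library, while C2 had only 45 to 198 counts in the macrophage-labelled ones. Txnip was higher, not lower, in the eWAT libraries labelled knockout (2700 ± 281 against 1700 ± 190 counts per 1000000 gene counts, CPM, scaled by TMM factors, on the control diet, SD, n = 7 and 7), so genotype is given here only as a label. The predicted gene Gm11868 separated the genotype labels in all eWAT groups, but went against the label in 4 of 6 macrophage-labelled ketogenic libraries (wild type replicates 1 and 2, knockout label replicates 2 and 3). The macrophage label was not borne out by the markers. In wild type on the control diet, 9 of 12 macrophage markers had a lower median in the macrophage-labelled than in the whole-eWAT libraries. The other 3 had a higher one. Adgre1, which encodes F4/80, was at 25.1 against 74.8 CPM and Fcgr1, which encodes CD64, at 1.5 against 4.7 CPM. CPM was scaled within each kind of library, and the kinds differ in kit and count column. No marker of the 12 was at 0 in either set of libraries. All 8 endothelial markers had a higher median there, and their summed level ran from 7030 to 8710 CPM against 959 to 1170 CPM in whole eWAT. These libraries are therefore called macrophage-labelled throughout. Each diet also has its own title prefix, which marks a set of libraries, and the effect of the diet and that of the set cannot be told apart.

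Of the 9 members, 5 had a RefSeq promoter window on GRCm38.p6, which covers 250 bases before and 50 bases after the annotated start. The windows of C1qb and C1qc are shown because these chains moved together across libraries. Those of C1ra and C3 are shown because this pair, level with C1ra and C1s1, was the most alike among the other members. Capitals mark matches, on either strand, to the letters of a STAT site (TTCNNNGAA), a PU.1 site (GAGGAAG) or a C/EBP site (TTGCNNAA). The interferon-stimulated response element was looked for too and had no match in any member's window.
C1qb: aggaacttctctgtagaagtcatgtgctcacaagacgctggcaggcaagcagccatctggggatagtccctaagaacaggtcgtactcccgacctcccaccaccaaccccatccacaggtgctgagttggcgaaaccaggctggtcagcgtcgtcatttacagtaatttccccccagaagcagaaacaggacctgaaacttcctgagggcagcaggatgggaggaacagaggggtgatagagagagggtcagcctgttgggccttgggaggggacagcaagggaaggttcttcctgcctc
C1qc: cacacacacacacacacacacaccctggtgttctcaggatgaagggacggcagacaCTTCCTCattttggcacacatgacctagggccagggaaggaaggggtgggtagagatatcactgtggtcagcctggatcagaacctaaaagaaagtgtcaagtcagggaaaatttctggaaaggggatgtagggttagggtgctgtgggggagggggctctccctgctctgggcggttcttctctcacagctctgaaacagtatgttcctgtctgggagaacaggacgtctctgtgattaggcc
C1ra: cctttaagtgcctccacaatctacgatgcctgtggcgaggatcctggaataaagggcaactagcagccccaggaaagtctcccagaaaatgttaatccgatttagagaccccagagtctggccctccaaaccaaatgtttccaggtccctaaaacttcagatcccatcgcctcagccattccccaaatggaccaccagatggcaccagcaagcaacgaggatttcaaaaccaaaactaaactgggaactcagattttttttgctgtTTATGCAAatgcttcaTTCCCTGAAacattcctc
C3: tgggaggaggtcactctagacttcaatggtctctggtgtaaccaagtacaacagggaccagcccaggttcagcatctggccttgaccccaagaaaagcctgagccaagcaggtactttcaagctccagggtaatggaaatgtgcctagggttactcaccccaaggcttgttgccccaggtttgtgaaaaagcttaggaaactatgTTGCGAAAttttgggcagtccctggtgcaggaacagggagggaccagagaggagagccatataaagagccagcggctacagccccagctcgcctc
The 4 windows lie at chr4:136886151-136886450 (minus strand), chr4:136892865-136893164 (minus), chr6:124512371-124512670 (plus) and chr17:57228087-57228386 (minus). C1qc held a PU.1 match 194 bases before its start, C3 a C/EBP match 45 bases before, and C1ra a C/EBP match 17 bases and a STAT match 33 bases after its start, with no overlap between them. C1qb held no match. In a window not shown, C1s1 held a C/EBP match at position -242 from the start. Of 32851 promoter windows of the same length, 13.6% held the PU.1 letters, 10.8% the C/EBP letters, 8.30% the STAT letters and 3.44% the interferon response letters, so a match describes the window and no more.

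On GRCm38 the 3 C1q chain genes lie side by side on chromosome 4, between 136880129 and 136898803. C1ra (124512405 to 124523443) and C1s1 (124530345 to 124542359) are neighbours on chromosome 6, C4b (34728380 to 34743882) and C2 (34862604 to 34898265) lie near each other on chromosome 17, which also carries C3 (57203970 to 57228136), and Serping1 lies on chromosome 2 (84765387 to 84775444). The values of C2 and C1s1 carry a counting limit. C2 shares 42.8% of its exon bases with the same-strand gene Gm20547, where a read cannot be given to one gene, and C1s1 shares 18.4% with the antisense gene Gm16567, which matters for the macrophage-labelled libraries, whose kit marks no strand. C4b, C1ra and C1s1 have close copies (C4a, C1rb and C1s2), so reads that fit 2 copies equally well may be missing from their counts.

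Per unit of length, C3 was the most abundant member in whole eWAT and C2 the least. In wild type on the control diet C3 stood at 1170 ± 249 TPM (counts over exon length, scaled to a sum of 1000000 per library; mean ± SD, n = 7), followed by C4b at 712 ± 160, Serping1 at 481 ± 59.2, C1s1 at 458 ± 59.7, C1qa at 450 ± 73.6 and C1qb at 400 ± 50.2 TPM. The ranges of each neighbouring pair in that order overlapped. C1qc at 187 ± 41.0 TPM lay below all of C1qb, its range met that of C1ra at 121 ± 23.7 TPM, and C2 at 32.6 ± 7.85 TPM lay below all the rest. C3 kept the first rank and C2 the last in each of the 4 eWAT groups.

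The ketogenic and control diets were compared first within wild-type eWAT, where 8 of the 9 members were lower and C1s1 did not pass. C1qa, the A chain of C1q, ran from 110 to 179 CPM with a median of 126 on the control diet (n = 7) and from 51.3 to 79.1 with a median of 57.5 on the ketogenic diet (n = 8). C1qb, the B chain, ran from 109 to 154 CPM (median 120) and from 46.3 to 72.7 CPM (median 54.2). Both genes had all 8 ketogenic libraries below all 7 control-diet libraries, and C1qc, the C chain, did too. The fitted log2 fold changes were -1.01 ± 0.12 for C1qa, -1.04 ± 0.10 for C1qb and -0.82 ± 0.13 for C1qc (SE; edgeR quasi-likelihood test, adjusted p = 2.6e-06, 3.0e-07 and 8.2e-05).

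Of the proteases of the C1 complex C1ra was lower. It went from 75.0 to 144 CPM (median 101) on the control diet to 38.1 to 82.5 CPM (median 61.4) on the ketogenic diet, so the groups overlapped, and its log2 fold change was -0.65 ± 0.16 (edgeR adjusted p = 0.0030). C1s1 went from 415 ± 59.6 to 332 ± 62.5 CPM without passing the test (-0.21 ± 0.11, edgeR adjusted p = 0.14). It passed when control-diet replicate 2 or ketogenic replicate 1 of wild type was left out (adjusted p = 0.040 and 0.039), with the GC content offset described below (-0.31, 0.038) and in the fit of all 4 eWAT groups (0.047).

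C2 and C4b, whose products are cleaved by C1s, were both lower. C2 ran from 26.2 to 49.6 CPM (mean 36.5 ± 8.75 SD) on the control diet and from 11.9 to 16.2 CPM (mean 14.3 ± 1.62) on the ketogenic diet, and C4b from 869 to 1650 CPM (median 1080) and from 306 to 718 CPM (median 447). Neither gene had overlapping groups. The log2 fold changes were -1.24 ± 0.13 for C2 and -1.18 ± 0.19 for C4b (edgeR adjusted p = 7.5e-07 and 6.0e-05). C3, on which all complement routes converge, ran from 1050 to 2310 CPM (median 1750) and from 603 to 1510 CPM (median 996) with overlap (-0.67 ± 0.21, edgeR adjusted p = 0.014). The C3 call ended with the GC content offset (-0.49, adjusted p = 0.075). Serping1, the inhibitor, ran from 265 to 401 CPM (median 321) and from 104 to 224 CPM (median 163) without overlap (-0.89 ± 0.14, edgeR adjusted p = 6.1e-05).

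In all, 8 of the 9 members were lower and none higher, in a comparison in which 53.8% of 15569 genes passed in either direction and 27.0% were lower. The median log2 fold change of the members was -0.89, against -0.01 over all genes tested. Of the members 6 had groups that did not overlap, beside 21.6% of all genes and 15.2% in the lower direction. Of 12 macrophage markers 8 fell and none rose, with a summed level of 1050 to 1410 CPM on the control and 684 to 923 CPM on the ketogenic diet. B cell markers were lower in 7 of 8 and mesothelial markers in 4 of 10, adipocyte markers were higher in 2 and lower in 3 of 10, fibroblast markers higher in 1 and lower in 2 of 10, and endothelial markers higher in 5 and lower in 1 of 8. T cell markers were lower in 2 of 7. Their part in the complement result was not tested. In bulk tissue fewer cells of a type and less RNA per cell cannot be told apart.

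**Figure D1:**
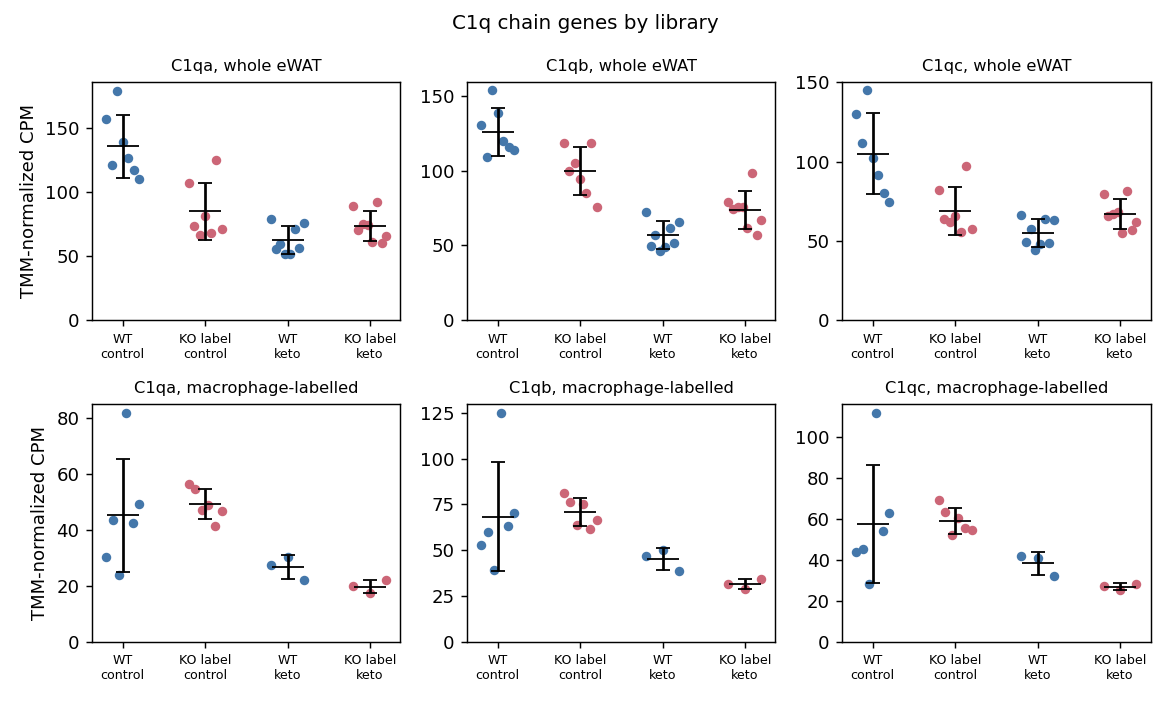
TMM-normalized CPM of C1qa, C1qb and C1qc in each library, for whole eWAT (upper row) and macrophage-labelled cells (lower row), by genotype label and diet; points are libraries, and bars give the mean and SD. In whole eWAT the wild-type control-diet libraries of C1qa lie between 110 and 179 CPM and the wild-type ketogenic libraries between 51.3 and 79.1 CPM.

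Within the libraries labelled knockout the same diet comparison gave a different picture among the members. C1qa ran from 66.6 to 125 CPM (median 73.7, n = 7) on the control diet and from 59.7 to 92.1 CPM (median 72.1, n = 8) on the ketogenic diet. C1qc ran from 55.3 to 97.4 CPM (median 63.5) and from 54.9 to 81.4 CPM (median 66.1). Neither passed the test, with log2 fold changes of -0.16 ± 0.13 and 0.00 ± 0.11 (edgeR adjusted p = 0.35 and 0.99; 95% interval by 1.96 SE from -0.41 to 0.09 and from -0.22 to 0.22). C1qb was lower, from 99.8 ± 16.1 to 73.7 ± 12.7 CPM (-0.40 ± 0.11, adjusted p = 0.0076).

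C2 changed the most among the members in the knockout label. It ran up to 63.7 CPM with a mean of 50.2 CPM on the control diet and from 15.1 to 19.8 CPM with a mean of 18.3 ± 1.49 CPM on the ketogenic diet without overlap, a log2 fold change of -1.42 ± 0.12 (edgeR adjusted p = 7.3e-07). Serping1 was lower by a log2 fold change of -0.71 ± 0.13 (360 ± 69.1 to 213 ± 45.4 CPM, adjusted p = 0.00051), and C1ra by -0.40 ± 0.10 (adjusted p = 0.0033). C1s1 passed narrowly at -0.23 ± 0.08 (adjusted p = 0.040). C3 and C4b did not pass, at -0.35 ± 0.17 and -0.31 ± 0.20 (edgeR adjusted p = 0.12 and 0.22).

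Thus 5 of 9 members were lower and none higher, where 39.5% of 16483 genes passed and 19.7% were lower. C2 was the 1 member without overlap, beside 12.5% of all genes and 6.59% in the lower direction. Macrophage markers were lower in 6 of 12 and higher in 1 (median -0.51), and B cell markers were lower in 6 of 8 (median -1.15). Adipocyte markers were lower in 3 of 10, and fibroblast markers higher in 3 and lower in 2 of 10. Their part was not tested. The C1s1 call ended in the fit of all 4 eWAT groups (adjusted p = 0.084) and without any single one of knockout-labelled control-diet replicates 2 to 6 or ketogenic replicates 2, 3, 4 and 7 (adjusted p from 0.051 to 0.085). C3 passed without control-diet replicate 7 (-0.44, 0.037) or ketogenic replicate 6 (-0.44, 0.044).

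**Figure D2:**
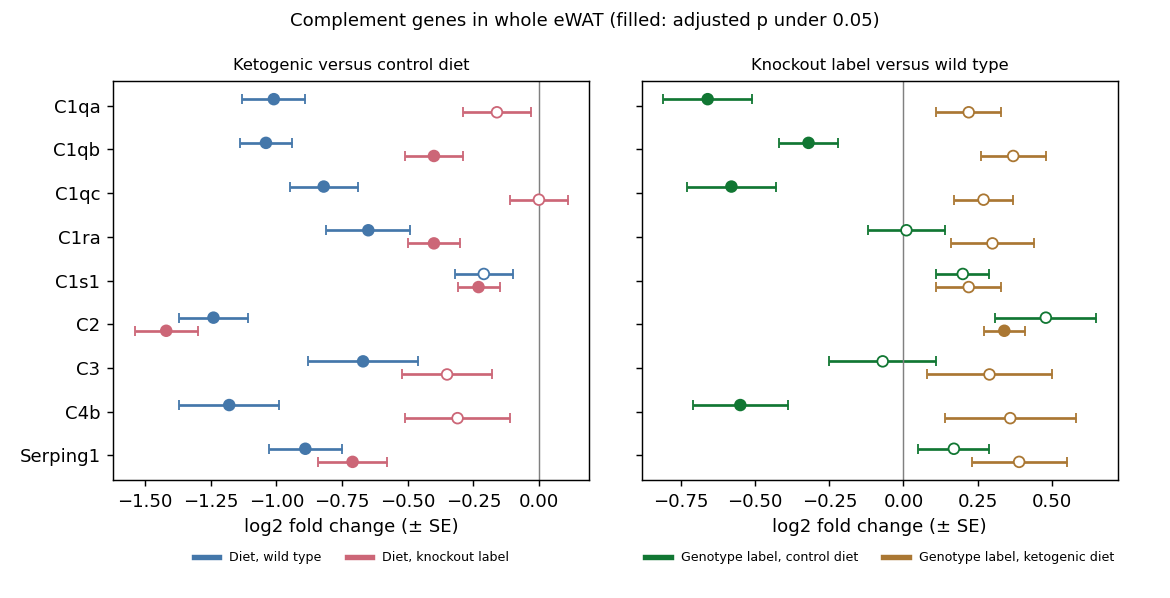
Fitted log2 fold changes with SE of the 9 genes in whole eWAT, for the ketogenic against the control diet (left) and for the knockout label against wild type (right); filled points passed at an adjusted p under 0.05. On the left the wild-type points of C1qa and C1qb lie near -1.01 and -1.04, and the knockout-label points at -0.16 and -0.40.

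The difference between the 2 diet effects was tested directly as the genotype by diet interaction over all 30 eWAT libraries. The C1q chains and C4b differed between the genotype labels in their diet effect, and the other 5 members did not pass. The interaction was 0.88 ± 0.19 for C1qa, 0.68 ± 0.15 for C1qb, 0.86 ± 0.19 for C1qc and 0.91 ± 0.28 for C4b on the log2 scale (SE; edgeR adjusted p = 0.0046, 0.0059, 0.0049 and 0.043). A positive value means that the ketogenic minus control difference was less negative in the knockout label. For C2 the interaction was -0.15 ± 0.18 and for C1s1 0.02 ± 0.15 (adjusted p = 0.69 and 0.95), and C1ra, C3 and Serping1 ran from 0.22 to 0.36 without passing. The 95% intervals of C3 (-0.19 to 0.91) and C1ra (-0.10 to 0.68) take in differences as large as some of those called.

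These 4 of 9 members stood beside 8.31% of 17140 genes called in either direction and 6.96% called higher. Of 12 macrophage markers none passed the interaction test, with a median of 0.30 on the log2 scale. Leaving out any single library kept the calls of the 3 C1q chains. The C4b call ended without any single one of wild-type control-diet replicates 1, 3 and 5, wild-type ketogenic replicates 2, 4, 5, 7 and 8, knockout-labelled control-diet replicates 2, 3, 5 and 7, and knockout-labelled ketogenic replicates 1, 2, 3 and 6 (adjusted p from 0.054 to 0.089). It also ended when no filter on low counts was used (0.95, adjusted p = 0.097).

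**Figure D3:**
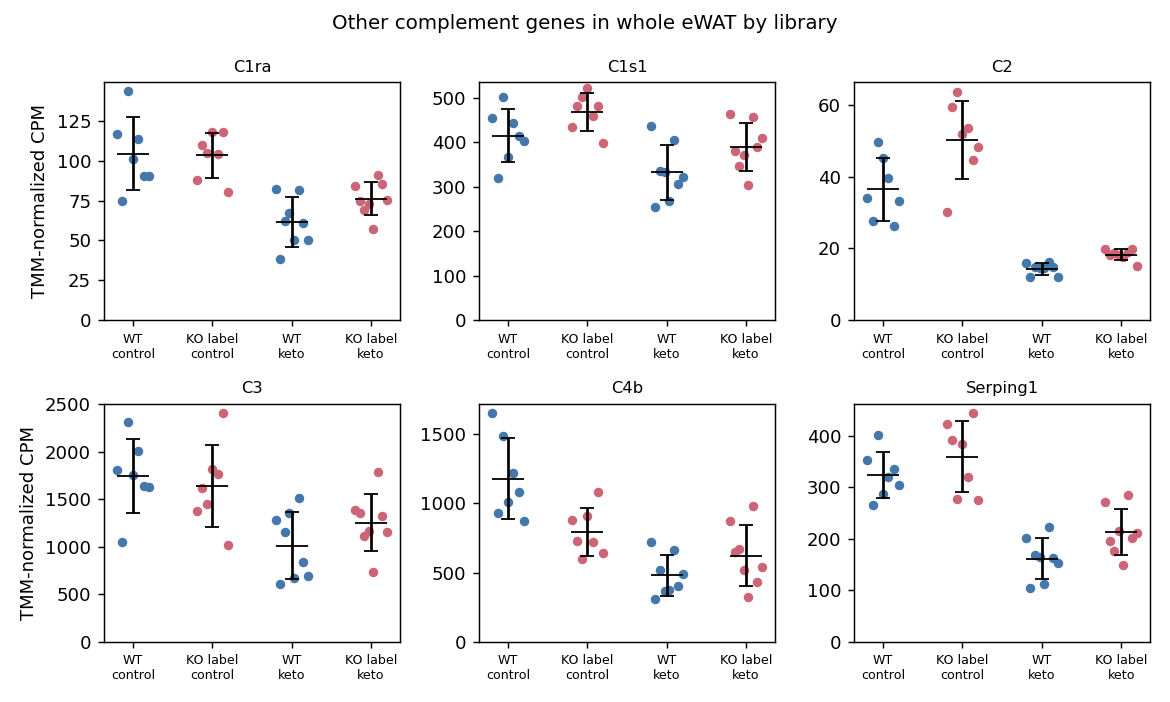
TMM-normalized CPM of C1ra, C1s1, C2, C3, C4b and Serping1 in each whole-eWAT library by genotype label and diet; points are libraries, and bars give the mean and SD. C2 lies between 26.2 and 63.7 CPM in the control-diet libraries of both labels and between 11.9 and 19.8 CPM in the ketogenic ones.

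The genotype labels were then compared within each diet; these comparisons share libraries with the diet comparisons above. On the control diet the recognition chains and C4b were lower in the libraries labelled knockout. C1qa was at 136 ± 24.9 CPM in wild type and 84.6 ± 22.5 CPM in the knockout label (n = 7 and 7), a log2 fold change of -0.66 ± 0.15 (edgeR adjusted p = 0.0095), and 6 of 7 knockout-labelled libraries lay below all of wild type. C1qc was at 105 ± 25.9 and 69.0 ± 15.2 CPM (-0.58 ± 0.15, adjusted p = 0.019), and C1qb at 126 ± 15.9 and 99.8 ± 16.1 CPM (-0.32 ± 0.10, adjusted p = 0.042). C4b, whose product is cleaved by C1s, was at 1180 ± 294 and 793 ± 170 CPM (-0.55 ± 0.16, adjusted p = 0.028).

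C2, C1s1 and Serping1 had higher means in the knockout label without passing, at 0.48 ± 0.17, 0.20 ± 0.09 and 0.17 ± 0.12 (edgeR adjusted p = 0.061, 0.14 and 0.33). C2 passed in the fit of all 4 eWAT groups (adjusted p = 0.0086), with the DESeq2 Wald test (0.024) and without wild type replicate 3 (0.035), wild type replicate 4 (0.044) or knockout label replicate 1 (0.013). C1ra and C3 changed by 0.01 ± 0.13 and -0.07 ± 0.18. So 4 of 9 members were lower and none higher, where 16.0% of 16746 genes passed and 11.6% were lower. No member had groups free of overlap, as 3.83% of all genes did. Macrophage markers were higher in 1 of 12 (Lyz2) and lower in none, with a summed level of 1050 to 1410 CPM in wild type and 1110 to 1780 CPM in the knockout label. Adipocyte markers were lower in 4 of 10, fibroblast markers lower in 2 of 10 and endothelial markers higher in 4 of 8, and their part was not tested. As a description, the geometric mean of the 3 C1q chains divided by that of the 12 macrophage markers had a median of 2.36 (range 1.92 to 2.82) in wild type and 1.51 (1.13 to 2.08) in the knockout label. It was 1.76 (1.46 to 1.98) and 1.65 (1.51 to 1.79) on the ketogenic diet. The ratio carries no correction for GC content, in which the C1q chains are rich, so its difference between labels shares the limit described next.

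GC content moved with this comparison. In the fifth of genes richest in GC, 1262 were lower and 6 higher in the knockout label. C1qa, C1qc, C1qb and C4b lay at percentiles 95.5, 90.2, 89.6 and 80.9 of GC content among the genes tested. With an offset that removes each library's smooth trend with GC content, no member passed. The log2 fold changes were then -0.26 ± 0.09 for C1qa, -0.30 ± 0.12 for C1qc, -0.04 ± 0.10 for C1qb and -0.41 ± 0.14 for C4b (edgeR adjusted p = 0.091, 0.12, 0.85 and 0.074). The interaction kept only C1qc with the offset (0.56 ± 0.15, adjusted p = 0.046), with C1qa at 0.48 ± 0.15 (0.072), C1qb at 0.40 ± 0.15 (0.16) and C4b at 0.76 ± 0.27 (0.14). GC content moved with the wild-type diet comparison too, with 1790 genes lower and 130 higher on the ketogenic diet in the fifth richest in GC. There the 3 chains kept their calls with it, at -0.67 ± 0.10, -0.72 ± 0.09 and -0.49 ± 0.12 (adjusted p = 0.00011, 2.4e-05 and 0.0034).

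The control-diet calls of C1qb and C4b also rested on single libraries. C1qb no longer passed when replicate 1, 3, 4, 5 or 6 of wild type or replicate 2, 3, 4, 5 or 7 of the knockout label was left out (adjusted p from 0.052 to 0.088). C4b no longer passed when replicate 1 or 3 of wild type or replicate 2, 3, 5 or 7 of the knockout label was left out (0.051 to 0.061), nor in the fit of all 4 eWAT groups (0.059). Without the low-count filter only C1qa passed, with C1qb, C1qc and C4b at adjusted p = 0.060, 0.055 and 0.075.

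**Figure D4:**
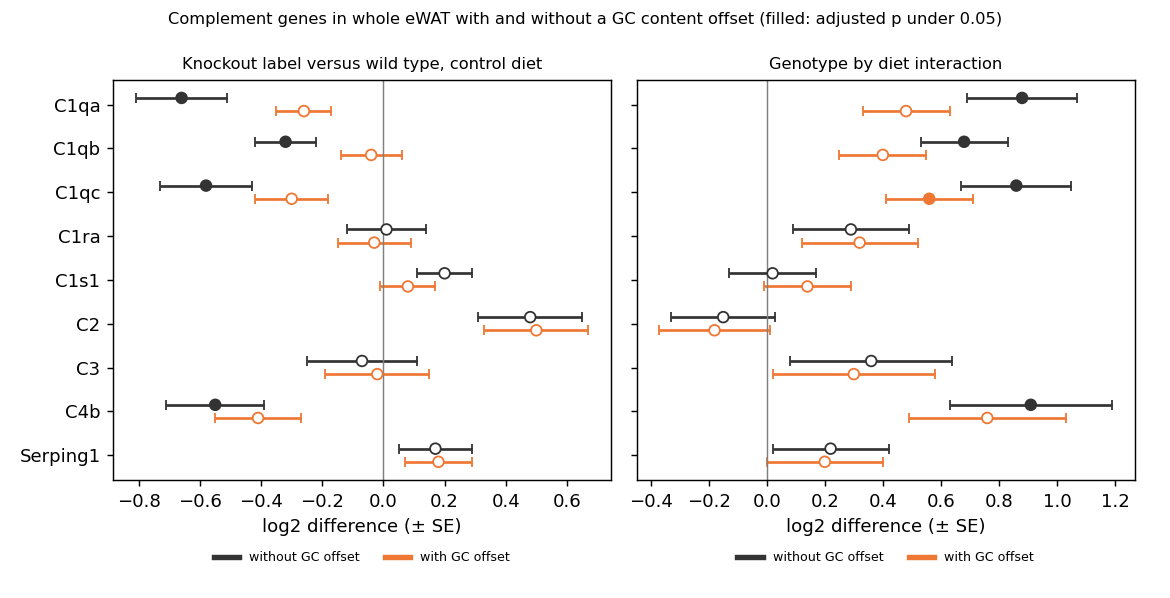
Fitted log2 differences with SE of the 9 genes in whole eWAT, without and with an offset for GC content, for the knockout label against wild type on the control diet (left) and the genotype by diet interaction (right); filled points passed at an adjusted p under 0.05. C1qb moves from -0.32 to -0.04 on the left and from 0.68 to 0.40 on the right.

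On the ketogenic diet C2 was higher in the eWAT libraries labelled knockout. It ran from 11.9 to 16.2 CPM (median 14.6) in wild type and from 15.1 to 19.8 CPM (median 18.5) in the knockout label (n = 8 and 8), and 7 of 8 knockout-labelled libraries lay above all of wild type. The log2 fold change was 0.34 ± 0.07 (edgeR adjusted p = 0.019). The other 8 members also had higher means in the knockout label without passing, from 0.22 ± 0.11 (C1qa and C1s1) to 0.39 ± 0.16 (Serping1). C1qb came closest at 0.37 ± 0.11 (adjusted p = 0.072). It passed without wild type replicate 1 (0.43, 0.030) or knockout label replicate 7 (0.41, 0.036), with the DESeq2 Wald test (0.025) and in the fit of all 4 eWAT groups (0.049), where C2 did not (0.15). With a block for replicate number, C1qa, C1qb, C1qc, C1s1 and Serping1 passed besides C2. Their edgeR adjusted p ran from 0.0045 for Serping1 to 0.039 for C1qa.

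That 1 member of 9 stood beside 3.36% of 15225 genes called and 1.48% called higher. At an unadjusted p under 0.05, 5 members passed, beside 18.9% of all genes. The median over the members was 0.30 on the log2 scale, against 0.00 over all genes tested. Macrophage markers had a median of 0.43 with 1 of 12 called higher, and a summed level of 684 to 923 CPM in wild type and 770 to 1610 CPM in the knockout label. Mesothelial markers had a median of 0.48, neutrophil markers 0.77, B cell markers 0.56, T cell markers 0.39 and fibroblast markers 0.21, with none called. Adipocyte markers had a median of -0.23 with 1 of 10 lower, endothelial markers -0.08 with none called, and the 1 hepatocyte marker tested was at -0.37 without a call. Their part in the C2 and C1q values was not tested.

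Across single eWAT libraries the members fell into patterns that can be described after subtracting each group's mean from log2(CPM + 1). Over the 30 libraries the 3 pairs of C1q chains had Pearson correlations from 0.81 to 0.93. The 10 pairs among C1ra, C1s1, C3, C4b and Serping1 ran from 0.69 to 0.91, and the 15 pairs between the sets from 0.41 to 0.82, the highest being C1qa with C4b. C2 ran from -0.05 to 0.59 with the other members. Libraries share depth and composition, so these are descriptions. Among 11784 genes, those closest to C1qa were C1qc (0.93), the lipid transfer gene Pltp (0.93) and Emilin1 (0.91). Those closest to C1qb were Man1c1 (0.91), the macrophage growth factor receptor gene Csf1r (0.89) and Pycard (0.88). For C1ra they were C3 and C1s1 (0.91 each) and Pard6b (0.89), and for C3 they were Lsr, Pard6b and C1ra (0.91 each). For Serping1 they were Loxl3 (0.88), Clu and Aldh1a2 (0.87 each), for C1s1 they were C1ra (0.91), Clu and Rnase4 (0.88 each), and for C4b they were Gfra2 (0.88), Pml and Fn1 (0.87 each). C1qc was closest to C1qa (0.93), Emilin1 and Unc93b1 (0.91 each). C2 had no gene above 0.76 (Oat).

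In the macrophage-labelled libraries the members ranked in another order than in whole eWAT. Lack of overlap between the sources was no more common among the members than among all genes, as given below. The kit, RNA input and count column of these libraries also differ from those of whole eWAT, so cell source and kit cannot be told apart and no test was made. In wild type on the control diet Serping1 ranked first there, with a median of 1040 TPM against 483 TPM in whole eWAT and no overlap (n = 6 and 7). C4b went the other way, with a median of 27.1 against 663 TPM, 24.4-fold lower, and C2 with 2.25 against 31.6 TPM, 14.0-fold lower. C1qa (146 against 410 TPM) and C1s1 (220 against 475 TPM) were also lower without overlap. For C1s1 the log2 difference of -1.11 became -0.27 when the unstranded column was used for eWAT as well, so its size rests on strand. Its lack of overlap is given for the stranded column of eWAT only and may not hold with the other.

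The ranges of C1qb (200.0 against 385 TPM), C1qc (91.6 against 193 TPM), C1ra (88.8 against 124 TPM) and C3 (572 against 1190 TPM) overlapped between the sources, each with the lower median in the macrophage-labelled libraries. Thus, with the stranded column for eWAT, 5 of 9 members did not overlap, 4 lower (C1s1 with the limit given above) and 1 higher. This stood beside 65.8% of 17253 genes with no overlap, 29.1% lower and 36.7% higher. Over the macrophage-labelled wild-type libraries on the control diet C4b ran from 11.4 to 147 CPM and C3 from 288 to 1730 CPM, a spread of 88.7% and 64.3% of the mean (SD). Serping1 spread by 26.7%.

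**Figure D5:**
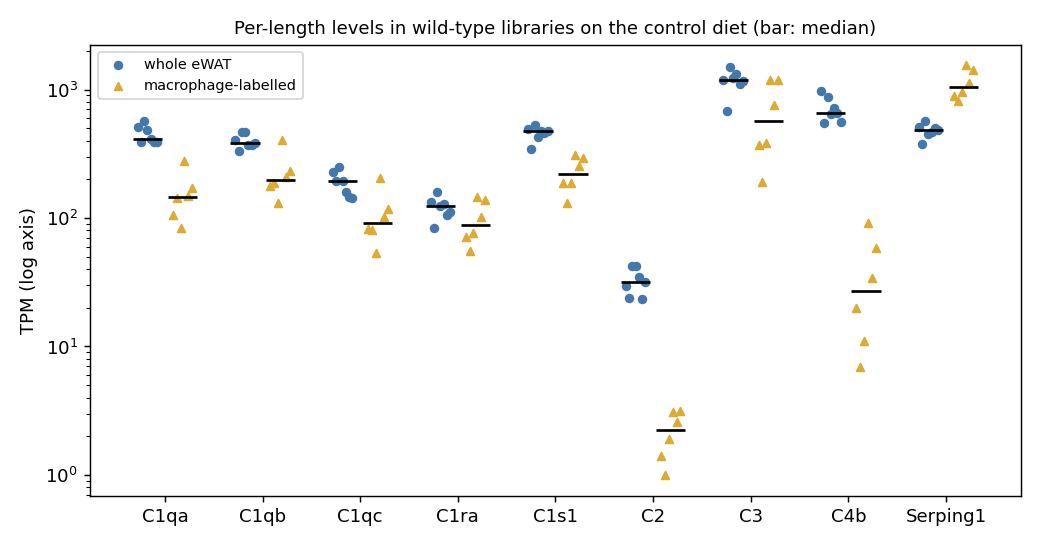
TPM (log axis) of the 9 genes in wild-type libraries on the control diet, whole eWAT (circles) and macrophage-labelled (triangles); points are libraries and bars are medians. C4b and C2 lie far lower in the macrophage-labelled libraries, with medians of 27.1 and 2.25, and Serping1 lies higher at 1040.

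The diets were compared in the macrophage-labelled libraries as well, where the C1q chains were lower on the ketogenic diet. With genotype labels together, which does not use the doubtful labels, C1qa went from 47.2 ± 14.3 CPM (n = 12) to 23.2 ± 4.85 CPM (n = 6), C1qb from 69.6 ± 20.6 to 38.4 ± 8.54 CPM and C1qc had 3 of 6 ketogenic libraries below all control-diet libraries, with a mean of 32.7 ± 7.26 against 58.6 CPM. Groups overlapped for all 3. The log2 fold changes were -1.03 ± 0.19, -0.86 ± 0.18 and -0.84 ± 0.20 (edgeR adjusted p = 0.00053, 0.0014 and 0.0040). The other 6 members did not pass, from -0.67 ± 0.38 for C4b to 0.19 ± 0.22 for C2. These 3 of 9 stood beside 30.4% of 17573 genes called and 16.1% called lower. Macrophage markers were lower in 9 of 12 in the same comparison (median -0.59) and neutrophil markers in 3 of 5 (median -0.68), while T cell markers were higher in 4 of 7 (median 0.77). Their part was not tested.

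Within the knockout label the 3 ketogenic libraries had C1qa at 19.9, 17.3 and 22.1 CPM, and the 6 control-diet libraries ran from 41.4 to 56.3 CPM (median 48.1). C1qb was at 31.8, 28.6 and 34.3 CPM against 61.7 to 81.0 CPM (median 70.7), and C1qc at 27.3, 25.2 and 28.4 CPM against 52.3 to 69.3 CPM (median 58.0). None of the 3 chains overlapped between diets, as 22.6% of all genes did not, 11.2% in the lower direction. The log2 fold changes were -1.32 ± 0.11, -1.16 ± 0.10 and -1.14 ± 0.09 (edgeR adjusted p = 5.1e-05, 5.6e-05 and 4.0e-05). These 3 of 9 members stood beside 20.3% of 17693 genes called and 9.57% called lower. T cell markers were higher in 4 of 7 and adipocyte markers higher in 5 and lower in 1 of 10. Macrophage markers were lower in 10 of 12, and their summed level fell to 404 to 492 CPM from 731 to 976 CPM. Without the libraries whose Gm11868 level went against the label, which leaves 1 ketogenic library, the changes were -1.31 ± 0.16, -1.15 ± 0.15 and -1.12 ± 0.15 (adjusted p = 0.0036, 0.0057 and 0.0050), the lone library being assumed to vary like the others. C4b passed only without control-diet replicate 3 of the knockout label (-0.83, adjusted p = 0.0027).

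In wild type the 3 ketogenic libraries had C1qa at 27.3, 30.5 and 22.1 CPM, of which 1 lay below the 23.8 to 81.8 CPM (median 43.1) of the 6 control-diet libraries. The log2 fold change was -0.78 ± 0.33 (edgeR adjusted p = 0.18; 95% interval from -1.43 to -0.13), and no member passed, beside 3.52% of 17687 genes. At an unadjusted p under 0.05 only C1qa did, beside 24.0% of genes. Gm11868 went against the label in ketogenic replicates 1 and 2 here. Without them, which leaves 1 ketogenic library, the changes were -1.05 for C1qa, -0.84 for C1qb and -0.86 for C1qc. The interaction of label and diet in the macrophage-labelled libraries called no gene of 18566 (0.0%) with edgeR, 726 at an unadjusted p under 0.05, none of them a member, beside 3.91% of genes. The DESeq2 Wald test called 17 genes there, no member among them.

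Between the genotype labels edgeR gave no call among the members in the macrophage-labelled libraries. On the control diet (n = 6 and 6) the log2 fold changes ran from -0.27 ± 0.16 for Serping1 to 0.11 ± 0.23 for C1qa, with no member at an unadjusted p under 0.05 (9.97% of genes) or called by DESeq2, and 0.082% of 17067 genes were called. On the ketogenic diet (n = 3 and 3) no gene of 17067 was called (0.0%) by edgeR, and 520 had an unadjusted p under 0.05 (3.05%). Among these were C1qa, C1qb, C1qc and C4b, at -0.43 ± 0.13, -0.51 ± 0.11, -0.50 ± 0.11 and -0.27 ± 0.11, each with an edgeR adjusted p of 1.00. C1qb and C1qc were without overlap, as were 7.44% of all genes and 4.29% in the lower direction. The DESeq2 Wald test called C1qb and C1qc (adjusted p = 0.032 and 0.049), and edgeR without the filter on low counts called C1qa, C1qb and C1qc (0.017, 4.9e-05 and 0.00014). In 4 of these 6 libraries Gm11868 went against the label. Leaving them out leaves 1 library of each label, with differences of -0.14, -0.27 and -0.22 for the 3 chains. Their SE of 0.56, 0.52 and 0.60 rests on the spread within the other groups, so that comparison of single libraries says nothing for or against a difference.

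The remaining complement genes were counted from a list of 44. In the wild-type diet comparison of eWAT 14 of 32 tested were lower and 3 higher, where 27.0% of all genes were lower. C6, a component of the membrane attack complex, went from 113 ± 16.2 to 25.5 ± 9.02 CPM (-2.03 ± 0.20), and Cfd, the alternative pathway protease adipsin, from 5100 ± 1420 to 1280 ± 390 CPM (-1.88 ± 0.20). C7, the next membrane attack component, fell by a log2 fold change of -1.42 ± 0.37. The receptor gene Cd93 (0.49 ± 0.16) and the regulator genes Cd59a (0.45 ± 0.07) and Cr1l (0.21 ± 0.04) were higher (edgeR adjusted p = 0.016, 5.0e-05 and 0.00019).

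In the knockout label 9 of 33 were lower on the ketogenic diet and none higher, where 19.7% of all genes were lower, with C6 at -2.20 ± 0.29, C7 at -1.53 ± 0.40 and Cfd at -0.96 ± 0.17 (edgeR adjusted p = 2.7e-05, 0.0065 and 0.00038). On the control diet 2 of 34 were higher and 2 lower with the knockout label, where 16.0% of all genes were called. Cd46, a regulator of C3 cleavage, was higher (0.51 ± 0.13) as was Cr1l (0.16 ± 0.04), while Cfd (-0.99 ± 0.21) and the lectin pathway protease gene Masp1 (-0.71 ± 0.21) were lower. On the ketogenic diet 1 of 30 passed, where 3.36% of all genes did: Lrp1, an endocytic receptor gene (0.25 ± 0.05, edgeR adjusted p = 0.018). Of 34 genes 4 passed the interaction test, where 8.31% of all genes did. It was positive for Cfd (0.96 ± 0.28), Masp1 (0.78 ± 0.24) and Lrp1 (0.59 ± 0.16) and negative for Cd46 (-0.64 ± 0.19).

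In the macrophage-labelled libraries, with the labels together, 8 of 33 were lower and 2 higher on the ketogenic diet, where 16.1% of all genes were lower. Vsig4, a macrophage receptor for C3 fragments, changed by -2.53 ± 0.71, Itgam, the CD11b chain of complement receptor 3, by -1.25 ± 0.34 and Cfp, properdin, by -0.95 ± 0.27. The level of Vsig4 was low and uneven, at 0.541 ± 0.287 CPM on the ketogenic and 3.14 ± 4.4 CPM on the control diet, and its groups overlapped. Susd4, a regulator gene, rose by 0.34 ± 0.10 (edgeR adjusted p = 0.013). The other gene that rose was Cfb, the alternative pathway protease factor B (0.78 ± 0.17). It lies under the level set for naming and was added after its value was seen. Overlaps with other genes were looked up only for the members, so a counting limit on Cfb was not checked.

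Within the knockout label 7 of 32 were lower and 1, again Cfb, was higher, where 9.57% of all genes were lower. Vsig4 changed by -2.41 ± 0.62 at a low level (0.416 against 2.19 CPM), Itgam by -1.40 ± 0.20 and C3ar1, the receptor for the C3a fragment, by -1.11 ± 0.12. Vsig4 and Itgam are macrophage genes, and Itgam is among the 12 markers above. Within wild type 1 of 33 passed, where 3.52% of all genes did: Cfd, from 91.9 ± 16.2 to 42.9 CPM (-1.11 ± 0.19, edgeR adjusted p = 0.015). Gm11868 went against the label in ketogenic replicates 1 and 2 of wild type, so diet and label cannot be told apart there. Between labels on the control diet 1 of 32 passed, where 0.082% of all genes did: Cfd, from 91.9 ± 16.2 to 32.4 ± 13.8 CPM (-1.51 ± 0.24, edgeR adjusted p = 0.048).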

How the data were processed

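Members and lists were chosen with earlier results of these data known. The deposited values were raw counts of reads for each gene (per the file headers and the submitters' processing notes: Trim Galore 0.6.0, STAR 2.7.8a, mm10), and nothing was normalized by them. The annotation release is unstated in the sources used here. For eWAT the stranded column was used, and the unstranded one for macrophage-labelled libraries, per the labels' kits. Rows naming no gene were left out. Symbols and exon lengths came from GENCODE vM21 on GRCm38 (55230 of 55471 genes matched) and promoters from RefSeq.

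Comparisons were fitted over all genes in R 4.3.3 with edgeR 4.0.16: filterByExpr, TMM, a robust quasi-likelihood test and Benjamini-Hochberg adjustment, two-sided, called at an adjusted p under 0.05. SE is the absolute log2 fold change over the square root of F. CPM uses TMM factors within each tissue, and TPM exon lengths. The fits were tested on simulated data.

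Of other complement genes, up to 3 called per direction and comparison with a mean of at least 1 CPM are named. Alternatives were DESeq2 1.42.0 (size factors, Wald test), no filter, a GC offset (span 0.3), all 4 groups, the replicate block, the unstranded column and leaving out each library. The fit without libraries of doubtful label was added after seeing the data. Total counts ran from 17.4 to 59.8 M, and the number of libraries limits precision.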

Additional observations from a re-analysis of the deposited data

Results flagged for a closer look

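In the macrophage-labelled wild-type libraries on the control diet, replicate 4 had C1qb at 125 CPM, and the next highest library had 70.2 CPM, a gap that set it apart from the other 5. Of 54 combinations of member and group tested this way 1 was set apart, where 2.7 would be by chance at 1 in 20. The members share libraries, so these tests are not independent. The ketogenic macrophage-labelled groups were too small to be tested this way.

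The diet effect on eWAT differed between the genotype labels, by a test of the difference itself, for C1qa (interaction 0.88 on the log2 scale), C1qb (0.68), C1qc (0.86) and C4b (0.91). The edgeR adjusted p-values were 0.0046, 0.0059, 0.0049 and 0.043, and with the GC content offset only C1qc still passed.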

How the results depend on the processing

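The number of members called depended on the setting in several comparisons. For the knockout label against wild type in eWAT on the control diet, 4 became 1 without the low-count filter and 0 with the GC content offset, 5 with the Wald test or the replicate block (each adding C2), and ran from 2 to 5 when single libraries were left out. On the ketogenic diet 1 became 2 with the DESeq2 Wald test and 6 with the replicate block, and ran from 1 to 2 without single libraries. The eWAT interaction went from 4 to 1 with the GC content offset and to 3 without the filter, and ran from 3 to 4 without single libraries. In macrophage-labelled ketogenic libraries 0 became 2 with the Wald test and 3 without the filter. The wild-type diet comparison went from 8 to 9 and the knockout-label one from 5 to 4 with all 4 groups fitted together, and without single libraries they ran from 8 to 9 and from 4 to 6, and the macrophage-labelled knockout-label one from 3 to 4. The cause was not tested.

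The main fits did not use replicate numbers as pairs. Same-numbered libraries correlated above 0.1 in 4 of 7, 7 of 8, 5 of 6 and 1 of 3 pairs (eWAT control and ketogenic, macrophage-labelled control and ketogenic). In the same order, 1, 5, 3 and 3 libraries were most like their own number. Whether the numbers stand for pairs was not settled, and the label calls in ketogenic eWAT depend on it. With the replicate block the 6 ketogenic calls were C1qa, C1qb, C1qc, C1s1, C2 and Serping1, and C2 also passed on the control diet (0.48, edgeR adjusted p = 0.044).

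Changes of direction fell only on members without a call. C1ra came to -0.03 (GC offset, eWAT control-diet label comparison), C1qc to 0.00, 0.00 and 0.03 (DESeq2 size factors, Wald test and GC offset, knockout-label diet comparison) and C1s1 to -0.01 and -0.01 (DESeq2 size factors and Wald test, eWAT interaction). With the replicate block the macrophage-labelled control-diet label comparison gave C1s1 0.03, C3 0.11 and C4b 0.20. Without libraries of doubtful label the wild-type diet comparison gave C1ra 0.01 and C1s1 0.05, the knockout-label one C1ra 0.07, and the interaction C4b 0.17 and Serping1 -0.03. Leaving out single libraries gave, in eWAT, C1ra -0.06 to 0.11 and C3 -0.18 to 0.02 (label, control diet), C1qc -0.05 to 0.09 (diet, knockout label) and C1s1 -0.04 to 0.09 (interaction). In macrophage-labelled libraries it gave C1qa -0.02 to 0.36, C1qb -0.08 to 0.29, C1qc -0.11 to 0.32, C1s1 -0.11 to 0.10, C3 -0.25 to 0.18 and C4b -0.45 to 0.26 (label, control diet). It gave C1ra -0.21 to 0.05, C1s1 -0.16 to 0.05 and C3 -0.33 to 0.10 (diet, wild type), and C1ra -0.11 to 0.08, C2 -0.11 to 0.19 and Serping1 -0.15 to 0.01 (diet, knockout label). With labels together C1ra ran from -0.11 to 0.01, and in the interaction C1ra from -0.07 to 0.19, C1s1 from -0.18 to 0.04, C3 from -0.40 to 0.04 and C4b from -0.53 to 0.19. Of 1458 values without a single library 1338 kept direction and call, and of 630 under other settings 583 did. C2 in macrophage-labelled libraries is limited by 45 to 198 counts.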
